A study of Mus musculus with 2 samples.

Results

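The genes described here are 10 known members of the alternative activation programme of macrophages: Retnla, Chil3, Arg1, Ear2, Rnase2a, Mgl2, Il4ra, Socs1, Pdcd1lg2 and Egr2. They were taken by symbol, and 10 of 10 were found among the 31053 genes counted. Peritoneal cells were collected on day 3 after 1 mg of zymosan per animal, from mice 10 to 14 weeks old, and sequenced as 2 single-cell libraries. The Cd36-/- library pools 4 replicates of a strain with floxed CD36 and LysM-Cre, a Cre expressed from the lysozyme gene and so in macrophages and their myeloid relatives. The fl/fl library pools 4 replicates with floxed CD36 alone. All animals therefore had zymosan peritonitis and floxed CD36, and an effect of Cre itself cannot be told apart from that of losing Cd36. Each group is 1 library of pooled animals, so no spread over animals was measured and no test could be made. Intervals are 95% intervals, exact, and cover counting error only. Where values stand in pairs, the first is from Cd36-/- and the second from fl/fl cells, and a log2 ratio above 0 means a higher level in Cd36-/- cells. After filters 15023 and 14005 cells were used, with medians of 6570.0 and 6897 unique molecular identifiers (UMIs, counts of single captured RNA molecules) per cell.

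Alternative activation is the state that macrophages take up under interleukin 4 or interleukin 13. Both cytokines signal through the receptor chain Il4ra, which activates the transcription factor Stat6, and Stat6 switches on secreted proteins such as Retnla and Chil3, the arginine-consuming enzyme Arg1, surface lectins such as Mgl2, and brakes such as Socs1. In the peritoneal cavity, large macrophages that depend on the transcription factor Gata6 live beside smaller macrophages rich in MHC class II, and both kinds are joined by monocyte-derived cells during peritonitis. Zymosan, a yeast cell wall preparation, is a stimulus of innate receptors and not of the interleukin 4 receptor.

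Stat6 binds palindromes of the form TTCNNNNGAA, whereas other STAT factors favour TTCNNNGAA, so the stretches before the starts of these genes were searched for both. A window of 300 bases (250 before the RefSeq start and 50 after it, GRCm38.p6) was read for 9 of the 10 genes, all but Arg1, with 5 windows for the 5 starts of Egr2 and 1 for each other gene. Both motifs are their own reverse complement in the fixed letters, so 1 search covers both strands, and the motifs, which differ in the spacing between their fixed ends, did not overlap in these windows. TTCNNNNGAA was present in the windows of Retnla and Pdcd1lg2, and TTCNNNGAA in that of Chil3, and neither was in the other 6. Of all 27025 genes with windows of the same length, 8.01% held TTCNNNNGAA in at least 1 window and 9.55% held TTCNNNGAA. The match began -145 bases from the start of Retnla, -82 from that of Pdcd1lg2 and -172 from that of Chil3. The 250 bases before the start are shown for these 3 genes, with the match in capitals, because they carry a STAT-type palindrome.
Retnla (chr16:48842359-48842608, plus strand): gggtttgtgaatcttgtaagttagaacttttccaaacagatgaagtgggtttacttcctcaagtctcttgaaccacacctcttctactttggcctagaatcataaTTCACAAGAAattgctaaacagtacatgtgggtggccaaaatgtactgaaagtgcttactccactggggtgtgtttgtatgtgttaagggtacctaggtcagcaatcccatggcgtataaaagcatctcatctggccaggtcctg
Chil3 (chr3:106167565-106167814, minus strand): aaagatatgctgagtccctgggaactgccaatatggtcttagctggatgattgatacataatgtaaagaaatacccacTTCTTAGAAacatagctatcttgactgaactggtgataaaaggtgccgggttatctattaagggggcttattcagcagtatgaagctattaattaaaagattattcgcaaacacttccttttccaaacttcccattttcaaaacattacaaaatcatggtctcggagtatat
Pdcd1lg2 (chr19:29410669-29410918, plus strand): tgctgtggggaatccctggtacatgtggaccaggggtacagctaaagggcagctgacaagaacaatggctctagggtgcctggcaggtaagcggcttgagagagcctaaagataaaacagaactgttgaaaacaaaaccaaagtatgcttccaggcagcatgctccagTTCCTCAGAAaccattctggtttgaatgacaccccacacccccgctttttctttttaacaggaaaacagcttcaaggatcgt
A match is a string of letters and was not measured as a bound site.

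Cells were sorted into classes from marker genes with the 10 genes kept out of the clustering, and each class is "-like" because its name was rebuilt here. The classes compared were large peritoneal macrophage-like cells (LPM-like, 3827 and 3043 cells), Gata6-low macrophage-like cells (3950 and 3166), MHC class II macrophage-like cells (2088 and 1533) and cDC2-like dendritic cells (360 and 457). Gata6 stood at 122 and 124 CPM (UMIs per 1000000 UMIs of the class) in LPM-like cells against 22.2 and 19.8 CPM in MHC class II macrophage-like cells. H2-Aa, an MHC class II gene, ran the other way, at 249.7 and 216 against 5516 and 6317 CPM. Both genes were used to name these classes, with limits of 75 CPM for Gata6 and 3000 CPM for H2-Aa. Their levels therefore describe the naming and are no support for it. The cDC2-like cluster also carried markers of 2 other cell types, with the cDC1 gene Xcr1 at 31.7 and 21.9 CPM and the B cell gene Cd79a at 397 and 389.8 CPM. Cd36 itself was lower in macrophage-like cells of the Cd36-/- library, at 173 against 245 CPM. Which exons are floxed is not given in the labels, so UMIs from the rest of the gene may remain, and the value checks only the direction of the labels.

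The 10 genes did not share 1 cell class. Retnla was highest in MHC class II macrophage-like cells, Arg1 in Gata6-low macrophage-like cells, Rnase2a in LPM-like cells, Mgl2 and Ear2 in cDC2-like cells, Socs1 in T cell-like cells and Pdcd1lg2 in B cell-like cells. Chil3 was shared by the Gata6-low and MHC class II macrophage-like classes, Il4ra was spread over nearly all classes, and Egr2 was near 0 in every class. This order was the same in the Cd36-/- and fl/fl libraries for the top class of each of Retnla, Arg1, Rnase2a, Mgl2, Ear2, Socs1 and Pdcd1lg2. The neutrophil-like class held only 115 and 137 shallow cells and is left out of this order.

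**Figure D1:**
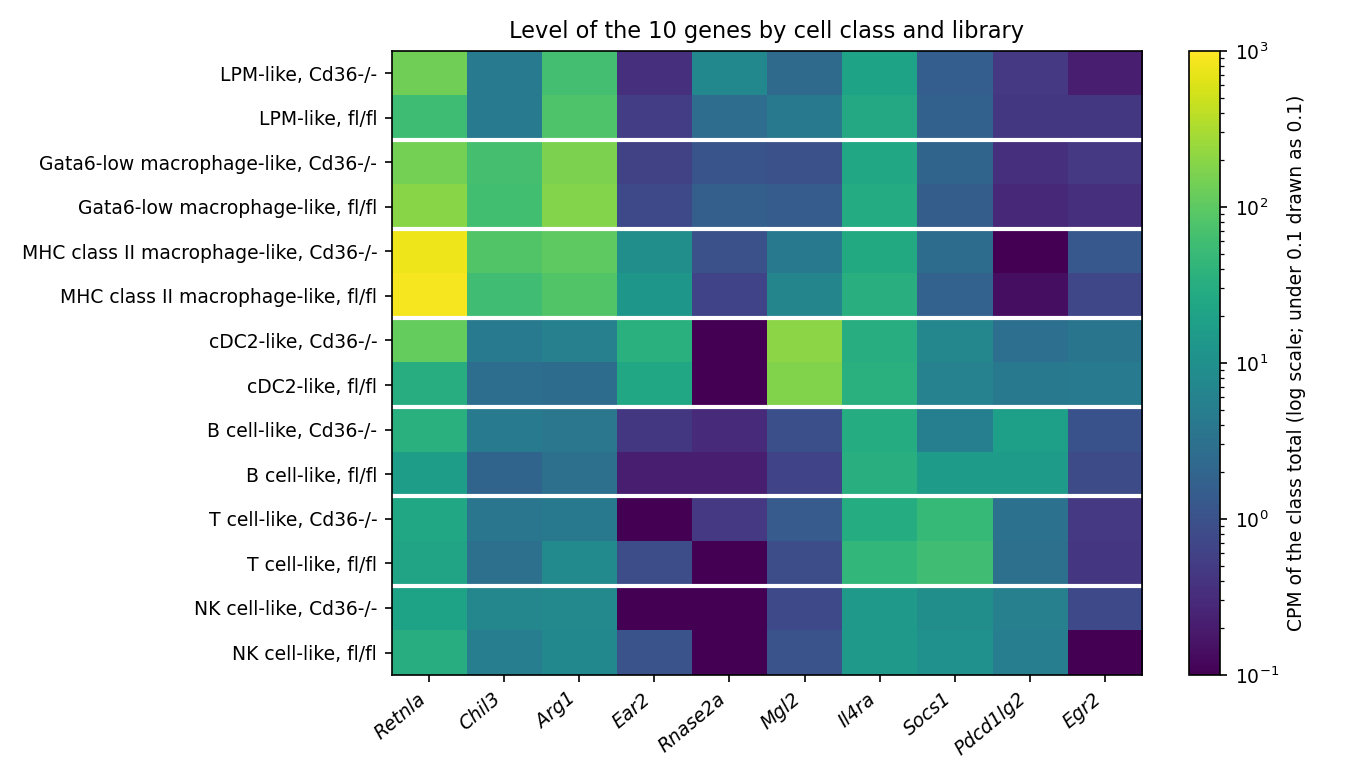
Level of the 10 genes (columns) in 7 cell classes of the Cd36-/- and fl/fl libraries (rows), as CPM of the class total on a log colour scale. Retnla is brightest in MHC class II macrophage-like cells (791 and 887 CPM in Cd36-/- and fl/fl), Mgl2 in cDC2-like cells (203 and 178 CPM) and Socs1 in T cell-like cells (47.6 and 60.1 CPM).

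In all macrophage-like cells pooled, the more abundant alternative activation genes, Retnla, Chil3, Arg1 and Il4ra, differed by less than 1.5-fold between the libraries. Of the 10 genes, these 4 reached 20 CPM in 1 library and were compared, and 0 of these 4 were at least 1.5-fold apart, where 0.653% of all genes compared in these cells were. Retnla stood at 282 (279 to 286) CPM in Cd36-/- and 287 (283 to 290.5) CPM in fl/fl cells (log2 ratio -0.02, -0.05 to 0.01). Chil3 stood at 49.1 (47.6 to 50.6) CPM in Cd36-/- and 40.7 (39.2 to 42.2) CPM in fl/fl cells (log2 ratio 0.27, 0.20 to 0.34). Arg1 stood at 115 (113 to 118) CPM in Cd36-/- and 125 (122 to 128) CPM in fl/fl cells (log2 ratio -0.12, -0.16 to -0.07). Chil3 was thus slightly higher and Arg1 slightly lower in the Cd36-/- library, both by less than 1.5-fold. Il4ra, the receptor chain itself, stood at 23.6 (22.6 to 24.7) CPM in Cd36-/- and 28.5 (27.2 to 29.7) CPM in fl/fl cells (log2 ratio -0.27, -0.36 to -0.18). The median log2 ratio was -0.07 over the 4 genes and -0.01 over all 4592 genes compared. The other 6 genes were under 20 CPM in macrophage-like cells and were not among the genes compared. Of these, Rnase2a stood at 3.23 and 1.79 CPM (log2 ratio 0.85, 0.54 to 1.17, from 260 and 127 UMIs) and Mgl2 at 2.15 and 3.41 CPM (log2 ratio -0.66, -0.95 to -0.37, from 173 and 241 UMIs), both over 1.5-fold apart in opposite directions at low levels.

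Retnla (resistin-like alpha, a secreted protein also called FIZZ1 that restrains type 2 inflammation) is encoded at chr16:48842551-48844461 (GENCODE M21 on GRCm38, plus strand), a start that lies before the RefSeq start used for the stretch printed above. The gene was carried by very few cells. Of macrophage-like cells, 77.3% in Cd36-/- and 76.9% in fl/fl cells had no Retnla UMI at all, whereas 1 Cd36-/- cell had 1056 of them. The 1% of macrophage-like cells with most Retnla held 75.4% of its UMIs in Cd36-/- and 61.9% in fl/fl cells. The same 1% held 20.4% and 20.3% for Chil3, and 17.2% and 20.6% for Arg1. Il4ra was the most even of the 4, with 11.1% and 9.53%. Only 33 and 48 macrophage-like cells held 50% of the Retnla UMIs, so the counting intervals of Retnla, which treat UMIs as independent, are too narrow to judge a difference between libraries.

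**Figure D2:**
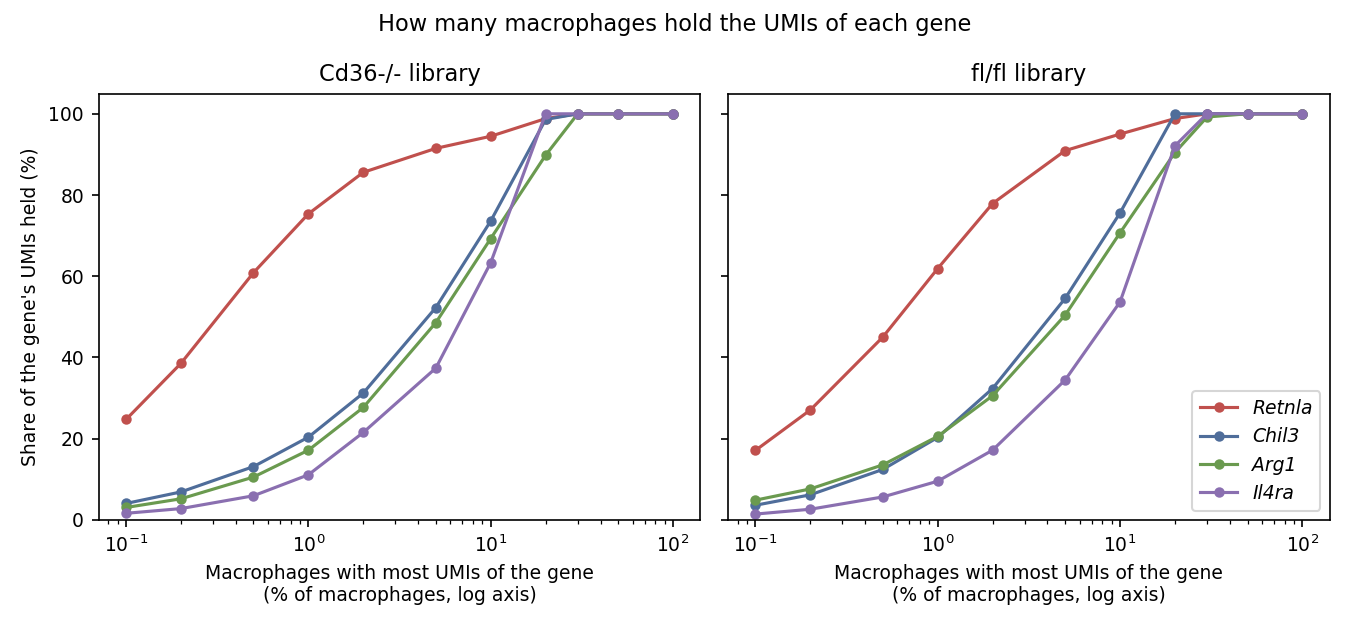
Share of the UMIs of Retnla, Chil3, Arg1 and Il4ra (vertical axis, %) held by the macrophage-like cells with most UMIs of that gene (horizontal axis, % of macrophage-like cells, log scale), in each library. The Retnla curve lies far above the other 3: 1% of the cells held 75.4% of Retnla UMIs in Cd36-/- and 61.9% in fl/fl.

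Cells with at least 50 Retnla UMIs per 10000 UMIs of the cell, a limit set after the values were seen, are called Retnla-high below. They were 116 of the 9865 macrophage-like cells in the Cd36-/- library, 1.18% (0.973 to 1.41, exact binomial), and 147 of 7742 in the fl/fl library, 1.90% (1.61 to 2.23). The difference in this share was -0.723 percentage points (-1.11 to -0.349), lower in the Cd36-/- library, although the summed Retnla level of the class was nearly equal. In MHC class II macrophage-like cells 72 cells (3.45%, 2.71 to 4.32) and 89 cells (5.81%, 4.69 to 7.10) were Retnla-high, and they held 90.5% and 86.3% of the Retnla UMIs of the class. In Gata6-low macrophage-like cells they were 30 (0.759%) and 52 (1.64%), again fewer in the Cd36-/- library. In LPM-like cells the order was the other way, with 14 (0.366%) and 6 (0.197%), and those intervals overlapped (0.20 to 0.613 and 0.0724 to 0.429). The limit cuts a continuous range: among macrophage-like cells 46 and 84 lay between 25 and 50 UMIs per 10000, and 49 and 59 between 50 and 100. The Retnla-high cells of the Gata6-low class in the fl/fl library were shallow, with a median of 3027 UMIs against 10015 in the other cells of that class, while in the Cd36-/- library the medians were 8412 and 8799. The part of this depth gap in the difference was not tested. An unnamed cluster of 170 and 232 cells, led by Retnla and Fcrls but also carrying B cell genes, was left out of all classes, and it had 1065 and 621 CPM of Retnla and 10 Retnla-high cells in each library.

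Retnla-high MHC class II macrophage-like cells differed from the other cells of their class in Ear2 and Chil3, in the Cd36-/- and the fl/fl library. Ear2, a ribonuclease of the eosinophil-associated family, stood at 165 CPM in the Retnla-high cells of the Cd36-/- library and 138 CPM in those of the fl/fl library, against 4.38 and 7.49 CPM in the other cells of the class. Chil3 ran the opposite way, at 9.19 and 16.9 CPM against 85.9 and 60.4 CPM. Arg1 stood at 29.4 and 62.4 CPM against 105 and 83.2 CPM, lower in the Retnla-high cells of the Cd36-/- library and with overlapping counting intervals in the fl/fl library. Il4ra stood at 33.1 and 43.9 against 26.7 and 31.5 CPM, with counting intervals that overlapped in both libraries. In the Retnla-high cells Chil3, Mgl2 and Egr2 each rested on few UMIs. Mgl2 and Egr2 also differed between the libraries in size or direction: Mgl2 stood at 3.68 and 25.3 against 4.21 and 5.73 CPM, and Egr2 at 16.5 and 1.69 against 0.770 and 0.661 CPM, with 1 UMI behind the fl/fl value of the Retnla-high cells. The cells were chosen by their Retnla, so these values are descriptions. Genes outside the 10 that were high with Retnla, named after their values were seen, were Fcrls, an Fc receptor-like gene (568 and 368 against 12.1 and 26.5 CPM), Cd226, an adhesion receptor gene (47.8 and 28.7 against 1.54 and 2.28 CPM), and Aldh1a2, which makes retinoic acid (75.4 and 47.2 against 1.84 and 4.26 CPM). Retnla and CD226 are both known marks of the resident MHC class II macrophages of the peritoneal cavity.

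**Figure D3:**
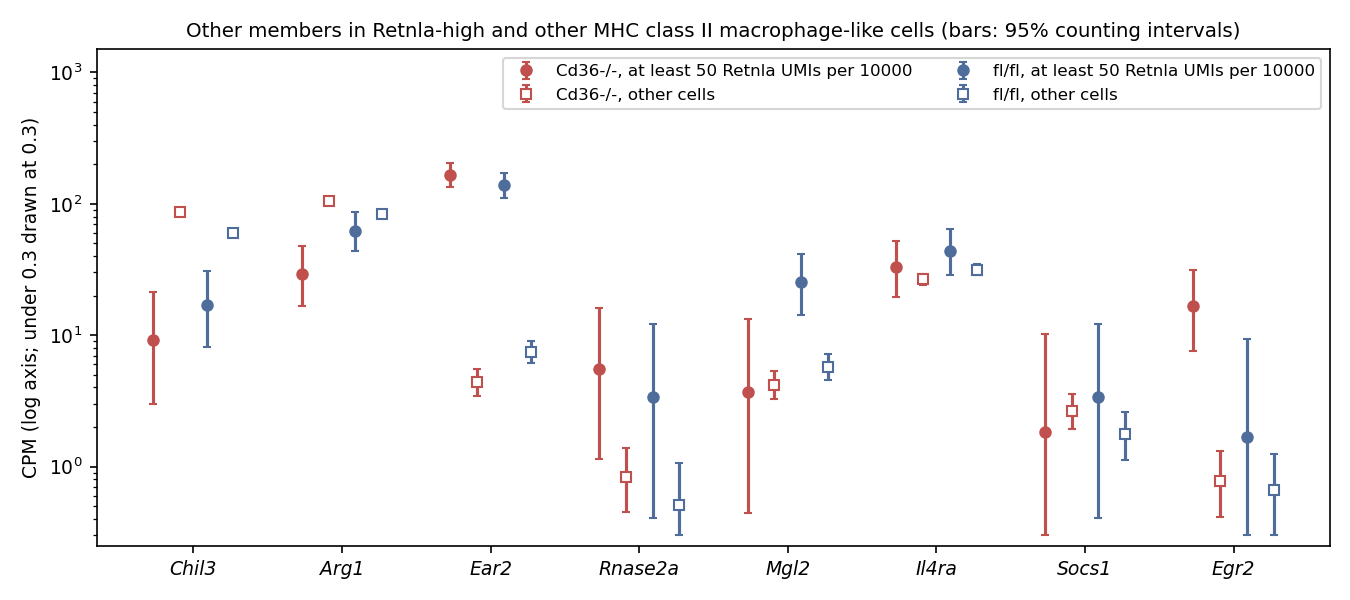
CPM (log axis) of 8 other genes of the set in MHC class II macrophage-like cells with at least 50 Retnla UMIs per 10000 (filled circles) and in the other cells of that class (open squares), by library, with 95% counting intervals. Ear2 is higher and Chil3 lower in the Retnla-high cells of the Cd36-/- and the fl/fl library, while Il4ra intervals overlap.

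Retnla-high LPM-like cells had the resident marker Timd4 and no detected Ear2 or Fcrls. In the Cd36-/- library the 14 cells had Timd4, a marker of long-resident macrophages, at 466 CPM against 539 CPM in the other LPM-like cells, and Ear2 and Fcrls had 0 UMIs in them, which allows up to 25.9 CPM. Alox15, a lipoxygenase gene typical of resident peritoneal macrophages, stood at 1475 against 1577 CPM. Ccl24, a chemokine gene that attracts eosinophils, stood at 690.1 against 313 CPM. The 6 such cells of the fl/fl library had Timd4 at 369 CPM against 417 CPM and likewise 0 UMIs of Ear2 and Fcrls, which allows up to 85.2 CPM. High Retnla was thus found beside Timd4 in the LPM-like class and beside Ear2 and Fcrls in the MHC class II class. Gata6 itself stood at 69.0 and 142 CPM in the Retnla-high LPM-like cells against 122 and 124 CPM in the others.

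Retnla was the 1 member of 3 compared in LPM-like cells that passed 1.5-fold, where 0.857% of all genes compared in that class did. It stood at 134 (129.7 to 138) CPM in Cd36-/- and 56.4 (53.5 to 59.4) CPM in fl/fl cells (log2 ratio 1.25, 1.16 to 1.34), from 3719 and 1396 UMIs. In the Cd36-/- library 8 cells held 50% of those UMIs, against 44 cells in the fl/fl library. Without the 10 highest cells of each library, an alternative chosen after seeing the data, the levels were 61.2 and 38.3 CPM and the log2 ratio 0.68. The share of LPM-like cells with a Retnla UMI, after thinning every cell to 1500 UMIs, was 6.28% (5.51 to 7.12) in Cd36-/- and 5.66% (4.85 to 6.56) in fl/fl cells. Those shares overlapped, and T cell-like cells, which should lack Retnla, had 4.63% and 4.05%. Before thinning the shares were 21.7% and 19.8% in LPM-like cells, where the median cell had 6902 and 7420.0 UMIs. They were 6.76% and 7.61% in T cell-like cells, whose medians were 2622 and 3259.5. The thinned share of LPM-like cells was thus little above that of T cell-like cells, and the difference in level was larger with the few highest cells than without them.

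The Retnla difference changed sign between macrophage clusters. The Alox15- and Vsig4-led LPM-like cluster (1093 and 829 cells) had 303 (290.3 to 316) CPM in Cd36-/- and 39.4 (34.4 to 45.0) CPM in fl/fl cells, with 3 Cd36-/- cells holding 50% of the UMIs, and the levels were 64.7 and 23.0 CPM without the 10 highest cells of each. The Folr2- and Cbr2-led Gata6-low cluster, in which haemoglobin genes of a few cells were also among the leading genes, had the reverse, 258 (248 to 268) CPM in Cd36-/- and 432 (419.7 to 444) CPM in fl/fl cells (log2 ratio -0.74, -0.81 to -0.67), and 127 and 268 CPM without the 10 highest. The Wfdc21- and Hp-led Gata6-low cluster was again higher in the Cd36-/- library, at 84.5 and 52.9 CPM (log2 ratio 0.68, 0.54 to 0.82), and 45.1 and 29.0 CPM without the 10 highest. In 5 of 8 macrophage clusters Retnla was higher in the Cd36-/- library and in 3 of 8 lower, and over all macrophage-like cells the levels were close. In MHC class II macrophage-like cells, where the gene is most used, it stood at 791 (778 to 805) CPM in Cd36-/- and 887 (872 to 903) CPM in fl/fl cells (log2 ratio -0.16, -0.20 to -0.13). Over the alternative ways of choosing cells that value ran from -0.30 to 0.18, so its direction depended on which cells entered the class.

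**Figure D4:**
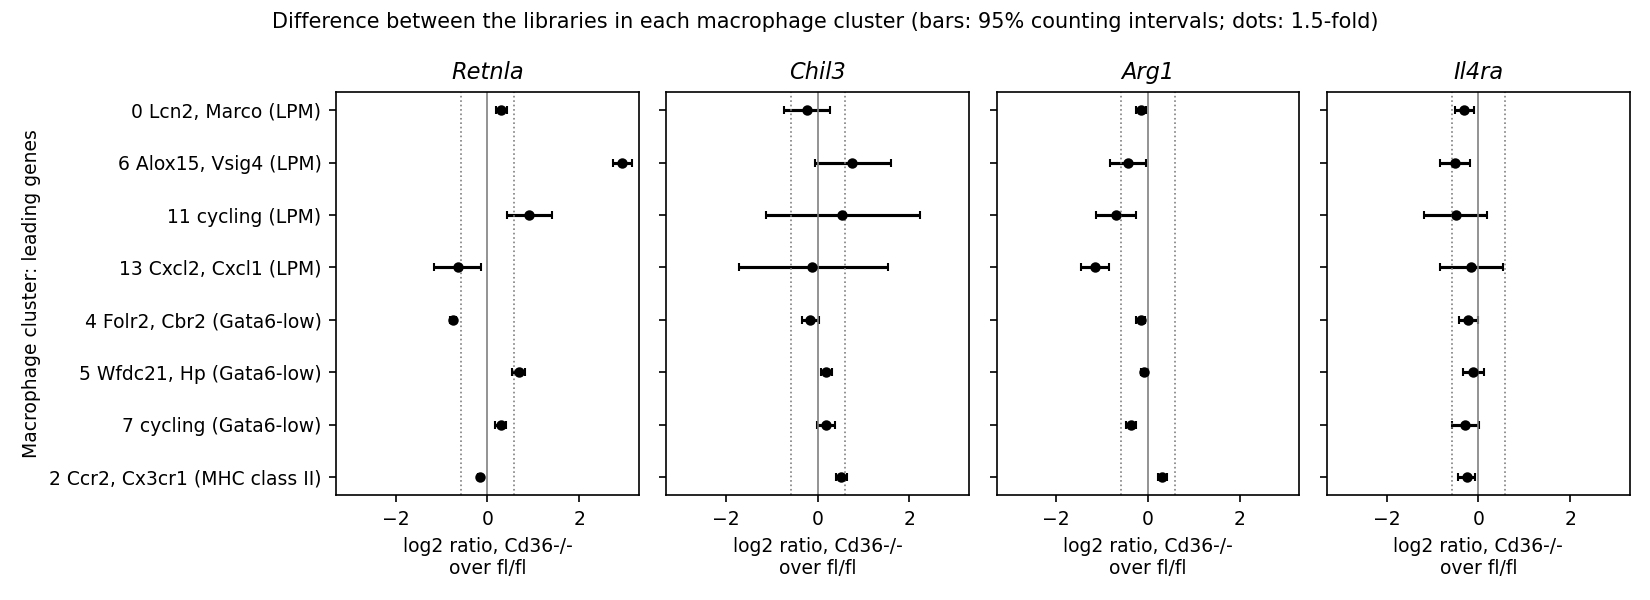
Log2 ratio of Cd36-/- over fl/fl (horizontal axis) of Retnla, Chil3, Arg1 and Il4ra in the 8 macrophage clusters (rows, named by leading genes), with 95% counting intervals; dotted lines mark 1.5-fold. Retnla points lie on both sides of 0, from -0.74 to 2.94, while the 8 Il4ra points all lie below 0, between -0.51 and -0.11.

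Chil3 (a chitinase-like lectin also called Ym1, chr3:106147554-106167564, minus strand) and Arg1 (arginase 1, chr10:24915221-24927484, minus strand) were used by the Gata6-low and MHC class II macrophage-like classes. Chil3 was nearly absent from LPM-like cells, at 4.61 and 4.32 CPM, against 67.1 and 61.0 CPM in Gata6-low and 83.5 and 58.6 CPM in MHC class II macrophage-like cells. T cell-like cells had 3.69 and 3.05 CPM, so Chil3 in LPM-like cells was near the level of cells that should lack it. Arg1 differed in this, with 64.3 and 78.5 CPM in LPM-like cells, 162 and 180.2 CPM in Gata6-low cells, 102 and 82.4 CPM in MHC class II cells and 4.15 and 8.27 CPM in T cell-like cells. Among macrophage clusters both genes were highest in the Wfdc21- and Hp-led Gata6-low cluster, where Chil3 stood at 97.1 and 85.5 CPM and Arg1 at 206 and 218 CPM. Over the whole Gata6-low class, of which that cluster is a part, no link between detecting Chil3 and detecting Arg1 was seen. After thinning, Arg1 was found in 15.7% of Gata6-low cells with a Chil3 UMI and 16.3% of those without in the Cd36-/- library. In the fl/fl library these shares were 15.5% and 18.1%, and the intervals overlapped in both libraries. Thinning can miss a gene that a cell uses, so these shares cannot decide whether the same cells used both genes. Retnla was found in 6.38% of MHC class II cells with Chil3 and 10.3% of those without in the Cd36-/- library, and in 1.85% and 14.8% in the fl/fl library. The intervals overlapped in the Cd36-/- library, and the fl/fl share with Chil3 was 2 of 108 cells.

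Chil3 and Arg1 both stood higher in the Cd36-/- library in MHC class II macrophage-like cells, where 0 of 4 members compared passed 1.5-fold beside 1.43% of all genes. Chil3 was at 83.5 (79.3 to 87.9) CPM in Cd36-/- and 58.6 (54.7 to 62.7) CPM in fl/fl cells (log2 ratio 0.51, 0.39 to 0.64), from 1455 and 832 UMIs. Arg1 was at 102 (97.7 to 107) CPM in Cd36-/- and 82.4 (77.7 to 87.2) CPM in fl/fl cells (log2 ratio 0.31, 0.21 to 0.42). Without the 10 highest cells of each library the log2 ratios were 0.54 for Chil3 and 0.50 for Arg1, so the differences were no smaller without those cells. Over all alternatives the ratios ran from 0.28 to 0.54 for Chil3 and from 0.17 to 0.50 for Arg1. They stayed above 0, but the low ends lay under the counting intervals given. In Gata6-low cells 0 of 4 members passed 1.5-fold, beside 0.939% of all genes: the log2 ratio was 0.14 for Chil3 and -0.15 for Arg1. Arg1 was lower in the Cd36-/- library in 7 of 8 macrophage clusters, all but the MHC class II one. The share of all genes lower in as many clusters was not taken. In the Cxcl2- and Cxcl1-led LPM-like cluster Arg1 stood at 79.1 and 176 CPM, where 9.72% of all genes compared were 1.5-fold apart. There 4 cells in each library held 50% of its UMIs.

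The genes around Arg1 that could be compared, like nearly all genes, differed by less than 1.5-fold between the libraries. Of 14 genes of arginine and polyamine handling, 6 were compared in macrophage-like cells. Of these, 0 were 1.5-fold apart, where 0.653% of all genes compared were. Sat1, which acetylates polyamines for export, stood at 308 and 273 CPM (log2 ratio 0.17). Odc1, which makes polyamines from the ornithine that arginase releases, stood at 22.0 and 23.9 CPM (log2 ratio -0.12). Slc7a2, an arginine transporter gene, stood at 21.9 and 19.4 CPM (log2 ratio 0.17). The median log2 ratio of the 6 was 0.08, beside -0.01 over all genes compared.

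Ear2 and Rnase2a are ribonucleases of the eosinophil-associated family, encoded at chr14:44102654-44103534, plus strand and chr14:51255262-51256112, minus strand. The stretches before their starts share 178 identical letters in an alignment of 294 columns, of which 206 have no gap (86.4% of those), and are shown because the genes were used by different cells.
Ear2 (chr14:44102404-44102653, plus strand): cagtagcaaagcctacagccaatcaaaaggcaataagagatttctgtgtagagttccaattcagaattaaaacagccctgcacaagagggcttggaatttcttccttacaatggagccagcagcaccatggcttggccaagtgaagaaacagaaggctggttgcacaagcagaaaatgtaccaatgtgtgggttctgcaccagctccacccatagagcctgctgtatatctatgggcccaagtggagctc
Rnase2a (chr14:51256113-51256362, minus strand): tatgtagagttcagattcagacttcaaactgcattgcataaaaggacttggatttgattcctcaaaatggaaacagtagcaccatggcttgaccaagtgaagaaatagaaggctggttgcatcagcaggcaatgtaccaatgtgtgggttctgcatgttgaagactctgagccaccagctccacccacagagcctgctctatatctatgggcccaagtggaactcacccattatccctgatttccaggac
Ear2 was found in cDC2-like cells (35.0 and 24.7 CPM) and MHC class II macrophage-like cells (9.41 and 13 CPM), and under 1 CPM in LPM-like cells. Rnase2a was found in LPM-like cells (7.35 and 2.67 CPM) and had 0 UMIs in cDC2-like cells, which allows up to 0.981 and 0.650 CPM. Of the 31-letter words in the last 500 bases of the Ear2 transcripts, 57.7% also occur in other genes, chiefly Ear1 and Ear10, against 6.81% for Rnase2a. The share was 24.5% for Chil3, chiefly with Chil4, and 19.8% for Mgl2, chiefly with Clec10a. How reads shared by such copies were counted is not given in the sources used here. The Ear2 level is therefore uncertain, and the levels of Chil3 and Mgl2 are so in part.

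Rnase2a was much higher in Cd36-/- cells of the cluster that used it most. In the Alox15- and Vsig4-led LPM-like cluster it stood at 23.9 (20.4 to 27.8) CPM in Cd36-/- and 3.57 (2.18 to 5.51) CPM in fl/fl cells (log2 ratio 2.74, 2.07 to 3.49), from 168 and 20 UMIs. It was found in 94 of 1093 Cd36-/- cells, 8.60% (7.01 to 10.4), and 13 of 829 fl/fl cells, 1.57% (0.838 to 2.67). T cell-like cells had 1 and 0 Rnase2a UMIs, the latter allowing up to 1.31 CPM. After thinning the shares in the cluster were 3.12% and 0.242%. Unlike Retnla in the same cluster, Rnase2a was spread over many Cd36-/- cells, with 20 of them holding 50% of its UMIs there. Without the 10 highest cells of each library it stood at 15.4 and 0.543 CPM. Only 13 fl/fl cells had a UMI, so leaving out 10 removed most of them. These levels therefore cannot judge the size of the difference. In that cluster 2 of the 3 members compared, Retnla and Rnase2a, were at least 1.5-fold higher in the Cd36-/- library, beside 5.12% of all genes compared. Rnase2a reached 20 CPM only in the Cd36-/- library, so its being counted and its direction go together and the count is no support. The Wfdc21- and Hp-led Gata6-low cluster had the opposite at a low level, with 14 and 27 UMIs (log2 ratio -1.21, -2.26 to -0.23), and the ratio was below 0 in 5 of 8 macrophage clusters. In the other 7 macrophage clusters Rnase2a did not reach 20 CPM.

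**Figure D5:**
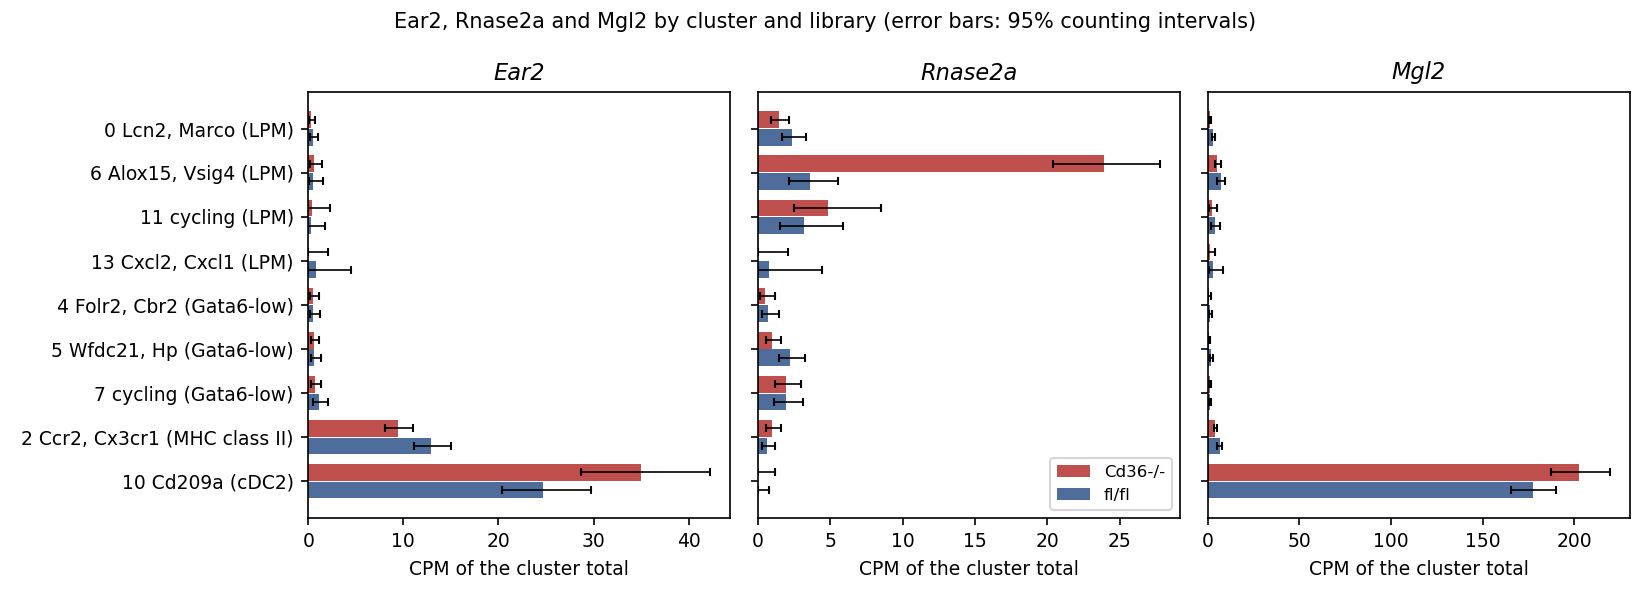
CPM (horizontal axes, different scales) of Ear2, Rnase2a and Mgl2 in the 8 macrophage clusters and the cDC2-like cluster (rows) of the Cd36-/- and fl/fl libraries, with 95% counting intervals. Rnase2a has its highest bar in the Alox15- and Vsig4-led cluster of the Cd36-/- library (23.9 CPM, against 3.57 CPM in fl/fl), and Mgl2 and Ear2 have theirs in cDC2-like cells.

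Mgl2 (CD301b, chr11:70130329-70137550, plus strand, a lectin that binds galactose-type sugars and marks dendritic cells that support type 2 responses) was a gene of cDC2-like cells, at 203 (187 to 219) CPM in Cd36-/- and 178 (166 to 190.2) CPM in fl/fl cells (log2 ratio 0.19, 0.04 to 0.34). It was found in 32.2% and 31.3% of them, with medians of 7827 and 9106 UMIs per cell. In macrophage-like cells it was rare, at 2.15 and 3.41 CPM, and lower in the Cd36-/- library in 8 of 8 clusters at levels under 10 CPM, with intervals below 0 in 2 of them. Some of these signs rest on few UMIs, such as 12 and 10 in the dividing Gata6-low cluster (log2 ratio -0.004). No share of all genes was taken at such levels. In the same cDC2-like class Ear2 stood at 35.0 (28.7 to 42.3) CPM in Cd36-/- and 24.7 (20.4 to 29.7) CPM in fl/fl cells (log2 ratio 0.50, 0.11 to 0.89). Among cDC2-like cells after thinning, Ear2 was found in 10.9% of those with Mgl2 and 5.07% of those without in the Cd36-/- library, and in 6.67% and 3.42% in the fl/fl library, with overlapping intervals. T cell-like cells had Mgl2 in 0.405% and 0.311% of cells. Of the 4 members compared in cDC2-like cells 1 passed 1.5-fold, Retnla, at 114 and 31.2 CPM (log2 ratio 1.87, 1.59 to 2.16), where 2.59% of all genes compared did. That difference came from 2 cells that held 82.6% of the 350 Retnla UMIs, and without the 10 highest cells of each library Retnla stood at 13.2 and 10.7 CPM, below the 24.9 and 21.8 CPM of T cell-like cells.

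Il4ra, the shared receptor chain for interleukin 4 and interleukin 13 (chr7:125552120-125579474, plus strand), was the most even of the 10 genes. It stood at 30.5 and 44.0 CPM in T cell-like cells, 30.7 and 34.3 CPM in cDC2-like cells, 30.2 and 31.9 CPM in B cell-like cells, 26.9 and 32.0 CPM in MHC class II macrophage-like cells, 24.2 and 28.6 CPM in Gata6-low cells, 20.9 and 26.3 CPM in LPM-like cells and 14.0 and 14.5 CPM in NK cell-like cells. Intervals of neighbours in that order overlapped at every step in both libraries, and its top class was not the same in both. In macrophage-like cells it was lower in the Cd36-/- library by under 1.5-fold, and the same direction was seen in 8 of 8 clusters, with intervals below 0 in 4. Of 5783 genes that reached 10 CPM in 1 library of every macrophage cluster, 7.4% were lower in all 8. The share of macrophage-like cells with an Il4ra UMI was 17.1% and 22.1%, and after thinning 3.73% (3.36 to 4.13) and 4.52% (4.06 to 5.02). The thinned intervals overlapped, and the median depths of 7866 and 8822 UMIs differed in the same direction as the unthinned share.

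Ligands of the interleukin 4 pathway were near 0 in macrophage-like cells, and the receptor partners and Stat6 that could be compared were nearly equal between the libraries. Il4 had 0 and 1 UMIs in macrophage-like cells, Il13 had 0 and 0, and 0 of the 6 ligand genes looked for reached 20 CPM; the most abundant was Tslp, an epithelial cytokine, at 0.697 and 0.805 CPM. Outside macrophages, T cell-like cells had 4 and 3 Il4 UMIs. Eosinophils and basophils are usual sources of interleukin 4. The naming of clusters had no class for either, so the class names cannot show whether such cells were present. Epx, an eosinophil granule gene, had 0 UMIs in every class compared, and in each library 2 of 7 eosinophil markers had 0 UMIs in all cells, while the list summed to 1127 and 927 CPM over all cells, most of it from Alox5ap, a gene that macrophages also use. The 6 basophil markers summed to 348 and 112 UMIs over all cells, with none of the 6 at 0, and 136 UMIs of Mcpt8, a basophil protease gene, lay in 4 cells of the neutrophil-like class of the Cd36-/- library, against 1 in that of the fl/fl library. Of 10 receptor and signalling genes, 4 were compared in macrophage-like cells and 0 were 1.5-fold apart, where 0.653% of all genes compared were. Il2rg, the common gamma chain that pairs with Il4ra, stood at 89.8 and 89.6 CPM (log2 ratio 0.00). Jak1, the kinase bound to Il4ra, stood at 111 and 114 CPM (log2 ratio -0.04). Stat6 stood at 52.9 and 56.1 CPM (log2 ratio -0.09). All 3 were thus near equal between the libraries.

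Socs1 (chr16:10782240-10785536, minus strand), a suppressor of cytokine signalling that Stat6 and interferon both induce, was not a macrophage gene here, at 1.97 and 1.65 CPM in macrophage-like cells. In the T cell-like class it stood at 47.6 (38.8 to 57.7) CPM in Cd36-/- and 60.1 (50.5 to 71.0) CPM in fl/fl cells (log2 ratio -0.34, -0.72 to 0.04), and it was highest in the small Trdc cluster of gamma delta T cell genes, at 164 and 158 CPM over 55 and 35 cells. In the B cell-like cluster led by Zbtb32 and Bhlhe41, genes of B-1 cells, Socs1 stood at 6.58 (4.99 to 8.53) CPM in Cd36-/- and 21.4 (19.1 to 23.8) CPM in fl/fl cells (log2 ratio -1.70, -2.13 to -1.29), where 1.73% of all genes compared were 1.5-fold apart. Socs1 passed 20 CPM there only in the fl/fl library. Of the 3 members compared in that cluster 1 was higher and 1 lower. The higher one was Retnla, at 38.6 and 13.8 CPM (log2 ratio 1.49, 1.23 to 1.74). Without the 10 highest cells of each library it stood at 18.2 and 12.5 CPM. Retnla passed 20 CPM there only in the Cd36-/- library. The directions of Socs1 and Retnla thus go with the filter, and the count is no support. Socs1 was found in 4.06% (3.06 to 5.26) and 13.8% (12.3 to 15.5) of the cells of that cluster, and after thinning in 1.06% (0.578 to 1.76) and 3.26% (2.51 to 4.16). B cells lie outside the myeloid cells in which LysM-Cre is known to act, and the cause of the Socs1 difference was not tested. Macrophage-like cells, which had little Socs1, had a UMI in 1.54% and 1.42% of cells, and in 0.327% and 0.256% after thinning. Of 8 feedback inhibitor genes 5 were compared in macrophage-like cells and 0 were 1.5-fold apart, where 0.653% of all genes compared were. Socs3, which restrains interleukin 6 signalling, stood at 33.5 and 30.9 CPM (log2 ratio 0.12) and Pias1 at 41.4 and 45.5 CPM (log2 ratio -0.14).

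Pdcd1lg2 (PD-L2, a ligand of the inhibitory receptor PD-1, chr19:29410919-29471161, plus strand) was a B cell gene in these libraries, at 17.9 (15.7 to 20.3) CPM in Cd36-/- and 15.4 (13.9 to 17.1) CPM in fl/fl cells. It was found in 7.37% and 7.63% of B cell-like cells. In macrophage-like cells it stayed under 1 CPM, and in MHC class II macrophage-like cells it had 0 and 2 UMIs. PD-L2 is known on B-1 cells of the peritoneal cavity as well as on macrophages activated by interleukin 4. Egr2 (chr10:67535475-67542188, plus strand), a zinc finger transcription factor induced by interleukin 4, was highest in cDC2-like cells, at 3.60 and 4.55 CPM, and stood at 0.547 and 0.452 CPM in macrophage-like cells. Of 11 transcription factor genes 5 were compared in macrophage-like cells and 0 passed 1.5-fold, where 0.653% of all genes compared did. Irf4, which serves alternative activation downstream of Stat6, stood at 24.4 and 20 CPM (log2 ratio 0.29). Bhlhe40 stood at 77.2 and 66.6 CPM (log2 ratio 0.21) and Klf4 at 65.6 and 68.7 CPM (log2 ratio -0.07).

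Other target genes of interleukin 4 divided evenly in macrophage-like cells. Of 25 genes in that list 10 were compared, and 5 were higher and 5 lower in the Cd36-/- library, with a median log2 ratio of -0.01. Of the 10, 0 passed 1.5-fold, where 0.653% of all genes compared did. Mrc1, the mannose receptor CD206, stood at 29.7 and 37.4 CPM (log2 ratio -0.34). Clec10a, a lectin gene close in sequence to Mgl2 and the only one compared of 13 paralogs of the members, stood at 21.2 and 25.7 CPM (log2 ratio -0.28). Alox15 stood at 636 and 554 CPM (log2 ratio 0.20) and Msr1, a scavenger receptor gene, at 282 and 244 CPM (log2 ratio 0.21). In cDC2-like cells 7 were compared, 2 were at least 1.5-fold higher and 1 lower in the Cd36-/- library, where 2.59% of all genes compared were 1.5-fold apart in either direction. Msr1 passed 20 CPM only in Cd36-/- and Ccl17 only in fl/fl cells, so their directions follow from that filter. The lower one was Ccl17, a chemokine that draws type 2 T cells, at 12.4 and 48.1 CPM (log2 ratio -1.95), from 38 and 222 UMIs. The higher ones were Alox15 at 42.2 and 22.8 CPM (log2 ratio 0.89) and Msr1 at 20.6 and 10.6 CPM (log2 ratio 0.96), both of them genes at far higher levels in LPM-like cells.

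Genes of classical activation belong to the interferon and bacterial product programme that is set against alternative activation. In macrophage-like cells 5 of 18 were compared, 5 of 5 had a ratio above 0 and 1 passed 1.5-fold, where 0.653% of all genes did, with a median log2 ratio of 0.27 beside -0.01 over all genes compared. Gbp2, an interferon-induced guanylate binding protein gene, stood at 125 and 82.6 CPM (log2 ratio 0.60). Ccl5, a chemokine for T cells, stood at 144 and 119 CPM (log2 ratio 0.27), and Cd40, a costimulatory receptor gene, at 28.2 and 23.2 CPM (log2 ratio 0.28). In MHC class II macrophage-like cells 2 of 4 passed 1.5-fold, beside 1.43% of all genes, namely Ccl5 at 114 and 68.9 CPM (log2 ratio 0.73) and Gbp2 at 158 and 97.4 CPM (log2 ratio 0.70). Of the others, Cd40 stood at 36.6 and 28.9 CPM (log2 ratio 0.34) and Irf5, an interferon regulatory factor gene, at 118 and 123 CPM (log2 ratio -0.06). In MHC class II cells Chil3 and Arg1 also had ratios above 0, so higher levels of these 2 alternative activation genes were seen beside higher Gbp2 and Ccl5. In cDC2-like cells 4 of 6 compared were above 0 and 2 below, 0 of them by 1.5-fold, beside 2.59% of all genes.

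Across clusters the genes most like each member in level were taken over 34 points, 17 clusters in each of 2 libraries, by Pearson correlation of log2(CPM + 1) among 7339 genes. The points share libraries and neighbouring clusters, so the values are descriptions. Retnla was most like Fcrls (r = 0.80), F13a1 (0.80) and Stx4a (0.79). Chil3 was most like Folr2 (0.91), F13a1 (0.89) and Eno1 (0.86), and Arg1 most like Clmn (0.96), Ltc4s (0.94) and Scarf1 (0.94). Mgl2 was most like Cd209d (0.91), Siglech (0.88) and Bex6 (0.88), and Ear2 most like Celf4 (0.85), Clec4b1 (0.84) and Bex6 (0.82). Il4ra was most like Pnpla7 (0.71), Matk (0.68) and Tbc1d14 (0.67), and Socs1 most like Eef1b2 (0.88), Rps16 (0.87) and Tnfsf8 (0.87). Among the 10 genes themselves the closest pairs were Chil3 with Arg1 (0.74), Ear2 with Mgl2 (0.72), Socs1 with Pdcd1lg2 (0.67) and Retnla with Chil3 (0.66). Within the MHC class II class, however, Chil3 was lower in the Retnla-high cells than in the other cells.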

How the data were processed

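Single-cell RNA-seq counts were analysed from 1 pooled Cd36-/- and 1 pooled fl/fl library. As deposited, each library is a gene by cell table of unnormalised UMI counts, written by Cell Ranger 3.0.0 per the file headers and aligned to mm10 per the submitters' processing notes; how reads shared by near-identical genes were counted is not given in the sources used here. The libraries held 116600736 and 117238064 UMIs over 16543 and 15537 barcodes, of which 383 barcode sequences occurred in both (300 among the cells used).

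Cells with under 200 genes (36 and 38) or over 10% mitochondrial UMIs (507 and 766) were removed, and then 977 and 728 doublets called per library by Scrublet in scanpy 1.11.5. Counts were scaled to 10000 per cell, and 2000 variable genes, without the 10 genes, Cd36 and Lyz2, were reduced to 40 principal components and clustered with leidenalg 0.10.2 on 20 neighbours at resolution 1, giving 22 clusters. Clusters were named from marker lists, with CPM limits on markers set after the data were seen; macrophage clusters with B or T cell markers stayed unnamed, but the cDC2-like cluster, named from Cd209a first, was kept although its Cd79a was above the 300 CPM used for that. The members, lists and markers were chosen with earlier results of these data known. Of 31053 gene IDs, 30934 were in GENCODE M21.

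UMIs were summed per class and library and given as CPM of the class total with exact Poisson intervals. Log2 ratios have exact conditional binomial intervals and shares of cells Clopper-Pearson intervals (scipy 1.17.1), all at 95% and for counting error only. Genes with at least 20 CPM in 1 library were compared, and a ratio of at least 1.5-fold was counted. For shares across depths each cell was thinned to 1500 UMIs, leaving out shallower cells. All 10 members were named; of each other list, up to 3 genes per direction were named, ranked by the interval bound nearest to 0, and where none was compared, the most abundant. The limit of 50 Retnla UMIs per 10000 and the value without the 10 highest cells of each library were chosen after seeing the data. Correlations across clusters carry no p-value. The ratio and its interval were tested on simulated data. Alternatives were other cell filters, keeping doublets, resolution 2, the members among the variable genes, subtracting the T cell level, other CPM and fold limits, and another scaling.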

Additional observations from a re-analysis of the deposited data

Results flagged for a closer look

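Retnla differed in direction between cell clusters. Its log2 ratio was 2.94 in the LPM-like cluster led by Alox15 and Vsig4, 0.92 in the dividing LPM-like cluster, 0.68 in the Gata6-low cluster led by Wfdc21 and Hp, and 1.87 in cDC2-like cells, all higher in Cd36-/-. It was -0.74 in the Gata6-low cluster led by Cbr2 and Folr2 and -0.65 in the LPM-like cluster led by Cxcl2 and Cxcl1, both higher in fl/fl. The dividing LPM-like cluster had 36.4 and 19.3 CPM, from 90 and 60 UMIs. The Cxcl2- and Cxcl1-led one had 35.3 and 55.3 CPM, from 62 and 69 UMIs. T cell-like cells had 24.9 and 21.8 CPM. The ratios of 2.94 and 1.87 rested on few cells, as given above. Each ratio compares 1 library with 1 library, and the difference between clusters was not tested. Among macrophage clusters, Chil3, Arg1 and Il4ra had no ratios of at least 1.5-fold in opposite directions.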

How the results depend on the processing

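Of 166 alternative log2 ratios of members, 159 had the sign of the reported value, and the ratios of Il4ra and Chil3 over all macrophage-like cells ran only from -0.28 to -0.26 and from 0.27 to 0.28. Retnla varied most over the alternatives: from 0.68 to 1.66 in LPM-like, -0.74 to -0.01 in Gata6-low, -0.30 to 0.18 in MHC class II macrophage-like, 0.31 to 3.24 in cDC2-like and -0.12 to 0.02 in all macrophage-like cells. The highest values in LPM-like and cDC2-like cells came from subtracting the T cell level, with the cells unchanged. Of 55 alternative counts of members 1.5-fold apart, 49 were as reported. The count was 2 in cDC2-like cells with a mitochondrial limit of 5%, with at least 500 genes per cell, and with genes from 5 CPM, and in these cells Ear2, at 0.81, and not Retnla was the member past 1.5-fold without the 10 highest cells of each library. With genes from 5 CPM it was also 2 in LPM-like and 1 in MHC class II macrophage-like cells. With the members among the variable genes it was 1 in Gata6-low cells, Retnla. The causes were not tested, except that a lower CPM limit admits more members. The difference in the share of Retnla-high cells kept its direction under all 6 alternative cell choices in each of 4 classes, and in MHC class II cells its interval reached 0 with doublets kept (-1.91, -3.87 to 0.00) and with the members among the variable genes (-1.23, -2.75 to 0.21). Mgl2 in cDC2-like cells stood at -0.01 with the 5% limit. Without thinning, the Il4ra share of macrophage-like cells differed by -5.00 percentage points. No paired analysis was possible because each group is 1 library.

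Limits: animals were pooled, so the spread between animals is unknown, and depth limits members under about 1 CPM. Intervals treat UMIs as independent, although a few cells held most Retnla UMIs. Class names were rebuilt from markers, and doublets missed by Scrublet or free RNA were not removed.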
